A study of Mus musculus with 30 samples.

Results

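This report describes 10 genes of the bone morphogenetic protein (BMP) and transforming growth factor beta (TGF-beta) pathways in mouse skeletal muscle. They are the inhibitor-of-differentiation genes Id1, Id2 and Id3, the inhibitory SMAD genes Smad6 and Smad7, the receptor genes Bmpr1a and Tgfbr1, the ligand genes Tgfb1 and Tgfb2, and Smad3, which encodes a signal-transducing SMAD. The genes were chosen by symbol, 10 of 56951 gene symbols in the deposited tables, and each had a single row there. The choice was made with earlier results of these data known, so the number of them called below is a description. All 10 had more than 20 reads and more than 0.5 FPKM (fragments per kilobase, scaled to library depth) on average, and were therefore among the 12030 genes tested.

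Male wild-type C57BL/6J mice, 10 weeks old when purchased, lived alone in cages with a running wheel and were kept first in a 12:12-h light-dark cycle and then in constant darkness. For the following 64 weeks, 14 mice of the LD group were kept under light from 8:00 to 20:00, and 16 mice of the ADV group under a cycle that was advanced by 8 h every 4 days. The gastrocnemius, with the plantaris attached, was taken over a span of daytime hours when both groups were in the same light-dark cycle, and 1 poly(A)-enriched library was sequenced per mouse. The hour at which each mouse was sampled is not given in the sources used here, and the schedule is a model of repeated jet lag in aged male mice of 1 strain.

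BMP and TGF-beta ligands bind paired type I and type II serine/threonine kinase receptors, and the activated type I receptor phosphorylates receptor SMADs, which enter the nucleus with SMAD4. Id1, Id2 and Id3 are immediate targets of the BMP branch. Their proteins bind E proteins and keep them from forming active dimers with factors such as MyoD, so that in muscle they are known as brakes on differentiation. SMAD6 and SMAD7 are also induced by the pathway and feed back on it, SMAD6 mainly on the BMP branch and SMAD7 on both branches. In muscle, the BMP branch is known for maintaining mass and the TGF-beta branch, through SMAD2 and SMAD3, for restraining growth and for fibrosis. Endothelial cells, which every muscle sample holds, also use these genes.

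Of the 10 genes, 4 were higher in ADV than in LD mice (Id1, Id3, Smad6 and Smad7) and 1 was lower (Bmpr1a), at a false discovery rate (FDR) under 0.05 in edgeR's quasi-likelihood test, with p-values adjusted by Benjamini-Hochberg across the full set of tested genes. Over those 12030 genes, 10.8% passed in either direction, 5.61% as higher and 5.2% as lower. The 4 higher genes also passed the study's fold change limit of 1.3, as did 1.45% of genes tested in that direction and 2.09% in either, and Bmpr1a did not reach that fold. The other 5 genes, Id2, Tgfb1, Tgfb2, Tgfbr1 and Smad3, did not pass. The median log2 fold change of the 10 genes was 0.15, beside 0.00 for all genes tested. Of all genes called, 51.9% were higher in ADV mice with TMM scaling, 62.4% with scaling by library size alone and 65.7% by limma on log2(FPKM + 0.1), and 5 of the 10 genes were called under each of these.

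**Figure D1:**
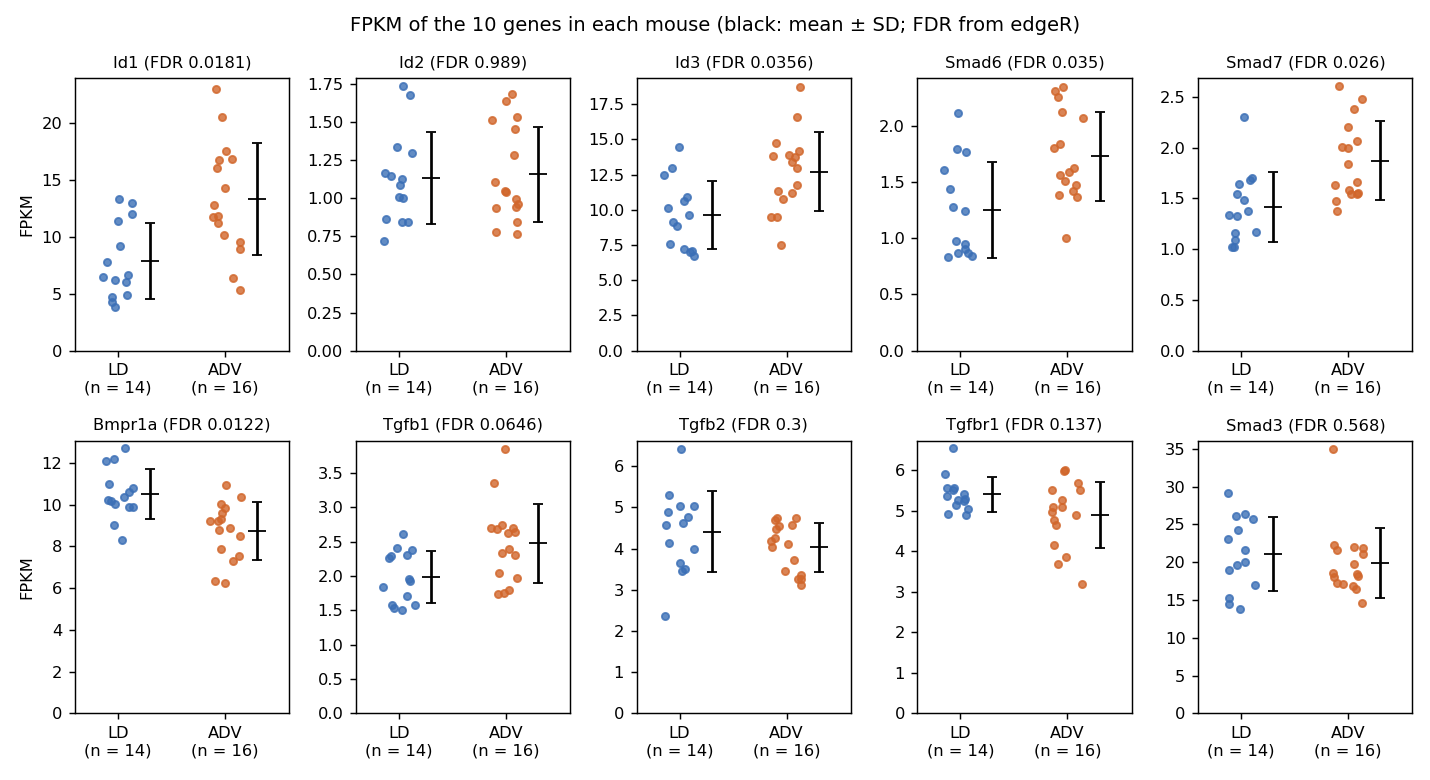
FPKM (vertical axis, from 0) of each of the 10 genes in every mouse, LD in blue (n = 14) and ADV in orange (n = 16), with the group mean ± SD in black and the edgeR FDR in each title. For Id1, Id3, Smad6 and Smad7 the ADV points are shifted upward but overlap the LD points, for Bmpr1a they are shifted downward, and Id2 covers the same range in both groups.

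Because the tissue is a mixture of cells, a higher or lower FPKM cannot be told apart as more cells of a type or more RNA per cell. Muscle fiber genes dominated every library, with the summed FPKM of 8 fiber genes between 39177 and 49055 in LD and between 38829 and 47423 in ADV mice (Acta1, skeletal alpha-actin, alone averaged 17194 FPKM), and 0 of the 8 were called by edgeR, DESeq2 or limma (3 had an unadjusted p under 0.05 in edgeR). The other cell types whose markers were followed were all present, with no marker at 0 in every library. The exon counts of a library summed to 19015401 to 28512674 read pairs in LD and 18875468.5 to 25699603.5 in ADV mice, and the labels name no batch. Reads counted on exons, as a percentage of the total that Homer gives for each library, moved with the group, from 90.9 to 91.3% in LD and from 91.1 to 92.7% in ADV libraries, with 12 of 16 ADV libraries above every LD library. Its part in the results was not tested.

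The promoters are shown for the called genes that were searched in the RefSeq promoter table. The short sequences searched are given below, and their part in the group difference was not tested. Promoters of 8 of the 10 genes were searched in this table (assembly GRCm38.p6, not the build of the expression files). Those of Id1 and Smad7 were not searched. Each line gives the 250 bases before the transcription start, 5′ to 3′ on the gene's strand, and capitals mark a match to 1 of 4 short sequences.
Id3, chr4:136143572-136143821, plus strand: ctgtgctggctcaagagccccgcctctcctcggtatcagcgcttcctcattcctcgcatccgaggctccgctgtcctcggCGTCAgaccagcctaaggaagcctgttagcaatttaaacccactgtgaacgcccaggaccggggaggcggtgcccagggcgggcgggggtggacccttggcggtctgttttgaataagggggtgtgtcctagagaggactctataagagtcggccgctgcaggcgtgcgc
Smad6, chr9:64022060-64022309, minus strand: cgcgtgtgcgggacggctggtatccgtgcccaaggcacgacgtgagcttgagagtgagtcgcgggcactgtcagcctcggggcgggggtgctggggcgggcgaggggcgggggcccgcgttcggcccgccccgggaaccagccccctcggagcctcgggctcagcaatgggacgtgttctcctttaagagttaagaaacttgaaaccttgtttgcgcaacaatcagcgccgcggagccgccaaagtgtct
Bmpr1a, chr14:34502547-34502796, minus strand: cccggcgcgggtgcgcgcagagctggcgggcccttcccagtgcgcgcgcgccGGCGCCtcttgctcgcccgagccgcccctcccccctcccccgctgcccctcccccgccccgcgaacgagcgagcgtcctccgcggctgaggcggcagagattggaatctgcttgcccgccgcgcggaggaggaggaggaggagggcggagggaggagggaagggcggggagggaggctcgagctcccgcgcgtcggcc
Both strands of the 300-base windows that run from 250 bases before the start to 50 after it were searched. One of the 4 short sequences was CACGTG, the E-box bound by clock factors, held by 7.15% of 32851 such windows of 27025 genes. The next was GGCGCC, a GC-rich element of SMAD1 and SMAD5, held by 11.9% of the windows. The cyclic AMP response core TGACG was held by 20.8%, and the SMAD3 and SMAD4 element CAGACA by 21.04%. The Id3 promoter held a single cyclic AMP response core, which reads CGTCA on the printed strand and begins at position -170 from the start. The Bmpr1a promoter held a single GC-rich element at position -198, and the Smad6 promoter held none of the 4. Among the genes that were not called, the promoter of Tgfb2 held an E-box, a cyclic AMP response core and a SMAD3 and SMAD4 element, that of Id2 held the GC-rich element, and those of Tgfb1 and Smad3 held none. Of the 2 Tgfbr1 promoters in the table, 1 held the GC-rich element and the other the SMAD3 and SMAD4 element. These are matches of letters in short windows, and binding was not measured.

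Id1 was the member with the largest difference. Id1 (chr2:152578171-152579330, GRCm39, plus strand, 2 exons) had a lowest, median and highest value of 3.82, 6.56 and 13.3 FPKM in LD mice and of 5.34, 12.3 and 22.9 FPKM in ADV mice. The ranges overlapped, but 7 of 16 ADV mice lay above the highest LD mouse and 14 of 16 above the LD median, and 4 of 14 LD mice lay below the lowest ADV mouse. The means were 7.83 ± 3.33 FPKM (SD, n = 14) and 13.3 ± 4.89 FPKM (n = 16), and the edgeR log2 fold change was 0.74 ± 0.20 (SE, adjusted p = 0.0181). Id1 also varied most among the mice of a group, with a coefficient of variation of 42.5% in LD and 36.8% in ADV mice. It remained called in all 30 fits that left out 1 mouse, with FDRs up to 0.0344.

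Id3, a close relative of Id1 with the same partners, moved in the same direction by less. Id3 (chr4:135870808-135872703, GRCm39, plus strand, 3 exons) had a lowest, median and highest value of 6.72, 9.39 and 14.5 FPKM in LD mice and of 7.50, 13.2 and 18.7 FPKM in ADV mice. Only 3 of 16 ADV mice lay above every LD mouse, while 15 of 16 lay above the LD median. The means were 9.63 ± 2.45 FPKM (SD, n = 14) and 12.7 ± 2.81 FPKM (n = 16), with an edgeR log2 fold change of 0.38 ± 0.12 (SE, adjusted p = 0.0356). The call was held in 20 of the 30 fits that left out 1 mouse. It was lost without 1 of ADV mice 24, 25, 32 or 34 or without 1 of LD mice 27, 28, 29, 30, 32 or 35, with FDRs up to 0.0628 and log2 fold changes from 0.34 to 0.44 over the 30 fits.

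Id2 did not follow the other Id genes. Id2 (chr12:25143798-25147139, GRCm39, minus strand, 4 exons) had a lowest, median and highest value of 0.718, 1.11 and 1.74 FPKM in LD mice and of 0.764, 1.04 and 1.68 FPKM in ADV mice, so that no ADV mouse lay above the LD range. Its means were 1.13 ± 0.30 FPKM (SD, n = 14) and 1.16 ± 0.31 FPKM (n = 16), and the edgeR log2 fold change was 0.00 ± 0.13 (SE, adjusted p = 0.989). With 55.3 reads on average it was the most thinly covered of the 10 genes. Its mean level per length over all mice, 1.15 FPKM, lay far under the 11.3 FPKM of Id3 and the 10.7 FPKM of Id1. The ratio of Id1 to Id3 FPKM had a geometric mean of 0.771 in LD and 0.997 in ADV mice, and 11 of the 30 mice had more Id1 than Id3.

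Exons of other genes lie on the opposite strand of each Id gene, of Bmpr1a and of Tgfb2 in the GENCODE vM39 annotation, and whether the counting used the strand is not stated. Gm75058 shares 21.1% of the exon bases of Id1 and Gm57159 16.6% of those of Id3. For Id2, Gm36287 shares 22.1% and Gm59395 30.8%. The share is 4.8% for Bmpr1a (Gm17110) and 1.5% for Tgfb2 (Gm29491). Without strand, reads of these pairs cannot be told apart.

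Both inhibitory SMAD genes were higher in ADV mice. Smad6 (chr9:63860358-63929341, GRCm39, minus strand, 4 exons) had a lowest, median and highest value of 0.836, 1.11 and 2.12 FPKM in LD mice and of 1.0, 1.61 and 2.35 FPKM in ADV mice. Here 7 of 14 LD mice lay below every ADV mouse and 15 of 16 ADV mice above the LD median, but only 4 ADV mice exceeded the highest LD mouse. The means were 1.25 ± 0.43 FPKM (SD, n = 14) and 1.73 ± 0.39 FPKM (n = 16), with an edgeR log2 fold change of 0.45 ± 0.14 (SE, adjusted p = 0.0350). The Smad6 call was held in 19 of the 30 fits that left out 1 mouse, and was lost without 1 of ADV mice 24, 25, 32 or 33 or 1 of LD mice 28, 29, 31, 32, 33, 35 or 36, with FDRs up to 0.0631.

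Smad7 showed the steadier difference of the pair. Smad7 (chr18:75500600-75529006, GRCm39, plus strand, 4 exons) had a lowest, median and highest value of 1.02, 1.36 and 2.30 FPKM in LD mice and of 1.37, 1.75 and 2.60 FPKM in ADV mice. All 16 ADV mice lay above the LD median, and 7 of 14 LD mice lay below the lowest ADV mouse. The means were 1.42 ± 0.35 FPKM (SD, n = 14) and 1.87 ± 0.39 FPKM (n = 16), with an edgeR log2 fold change of 0.38 ± 0.11 (SE, adjusted p = 0.0260), and the call was held in all 30 fits that left out 1 mouse (FDRs up to 0.0457). The geometric mean of the ratio of Smad7 to Smad6 FPKM was 1.16 in LD and 1.09 in ADV mice.

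The same LD mouse stood highest in its group for 5 of the genes. LD mouse 34 had 13.3 FPKM of Id1, 14.5 of Id3, 2.12 of Smad6, 2.30 of Smad7 and 2.61 of Tgfb1, each the highest of 14. It also had the highest Bmal1 of the LD group, 14.8 FPKM, and the lowest Dbp, 3.36 FPKM (Bmal1 encodes a core clock activator and Dbp a clock-driven output factor). Without this mouse the FDRs of Id3, Smad6 and Smad7 were 0.0172, 0.0127 and 0.00666, and Tgfb1 was called at 0.0443. At the other end, ADV mouse 36 was the lowest of the ADV group in the same 5 genes, with 5.34 FPKM of Id1 and 1.37 of Smad7. ADV mice 24 and 25 had the 2 highest values of their group in Id1, Id3 and Tgfb1.

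Bmpr1a, a type I receptor for BMP ligands, was the only one of the 10 genes called lower in ADV mice. Bmpr1a (chr14:34132691-34224644, GRCm39, minus strand, 13 exons) had a lowest, median and highest value of 8.32, 10.3 and 12.7 FPKM in LD mice and of 6.25, 9.04 and 10.9 FPKM in ADV mice. None of the ADV mice lay above the LD range, 5 of 16 lay below it, and 14 of 16 lay below the LD median. The means were 10.5 ± 1.21 FPKM (SD, n = 14) and 8.75 ± 1.37 FPKM (n = 16), and Bmpr1a fell by 0.28 ± 0.07 on the log2 scale (edgeR, SE, adjusted p = 0.0122). The call was held in all 30 fits that left out 1 mouse, with FDRs up to 0.0255. The 4 lowest ADV mice were 34, 25, 27 and 24, with 6.25, 6.32, 7.29 and 7.53 FPKM, and without mouse 34 the edgeR log2 fold change was -0.26 (FDR 0.0172).

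Tgfbr1, the type I receptor for TGF-beta ligands, did not pass the test. Tgfbr1 (chr4:47353222-47414931, GRCm39, plus strand, 9 exons) had a lowest, median and highest value of 4.89, 5.34 and 6.56 FPKM in LD mice and of 3.21, 5.02 and 6.01 FPKM in ADV mice. Its edgeR log2 fold change was -0.16 ± 0.07 (SE, adjusted p = 0.137), from means of 5.41 ± 0.43 FPKM (SD, n = 14) and 4.90 ± 0.82 FPKM (n = 16). The ADV mice were more spread, with 6 of 16 below the lowest LD mouse and 5 above the LD median. The mean absolute deviation of log2(FPKM + 0.1) from the group median was 0.0756 in LD and 0.187 in ADV mice (two-sided permutation test, p = 0.0288, not adjusted for the 10 genes tested in this way), and for the other 9 genes this test gave p-values from 0.0948 to 0.939. The lowest ADV mice were the same as for Bmpr1a and in the same order, mice 34, 25, 27 and 24 with 3.21, 3.70, 3.87 and 4.15 FPKM. Without any 1 of these 4 mice the test of the spread no longer passed, with p-values of 0.0613, 0.062, 0.0609 and 0.0543 in that order (permutation test), and it passed in the other 26 of 30 fits that left out 1 mouse. The library of ADV mouse 34 stood apart in other ways, with the highest share on exons (92.7%) and the lowest value of its group in Smad4, Bmpr2, Tcf4, Tcf12 and the giant sarcomere gene Ttn (69.6 FPKM, beside at least 117 FPKM in LD mice), genes looked up for this mouse after its values were seen. In each of the 30 mice Bmpr1a exceeded Tgfbr1 in FPKM.

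The ligand Tgfb1, which is secreted in a latent form, lay near the threshold. Tgfb1 (chr7:25386427-25404502, GRCm39, plus strand, 7 exons) had a lowest, median and highest value of 1.50, 1.94 and 2.61 FPKM in LD mice and of 1.74, 2.51 and 3.84 FPKM in ADV mice. Although 8 of 16 ADV mice lay above every LD mouse, its edgeR log2 fold change of 0.29 ± 0.11 had an adjusted p of 0.0646 (SE, means 1.99 ± 0.38 FPKM, SD, n = 14, and 2.48 ± 0.57 FPKM, n = 16). DESeq2 gave Tgfb1 an FDR of 0.0471, and edgeR called it in 5 of the 30 fits that left out 1 mouse. Tgfb2, a second ligand of the same receptors (chr1:186356415-186437897, GRCm39, minus strand, 8 exons), had a lowest, median and highest value of 2.37, 4.60 and 6.41 FPKM in LD mice and of 3.11, 4.15 and 4.75 FPKM in ADV mice. The ADV values of Tgfb2 fell inside the LD range, and its edgeR log2 fold change was -0.15 ± 0.10 (SE, adjusted p = 0.300). Tgfb2 exceeded Tgfb1 in FPKM in each of the 30 mice, with a geometric mean ratio of 2.20 in LD and 1.65 in ADV mice.

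Smad3, the receptor SMAD of the TGF-beta branch, was the most abundant of the 10 genes. Smad3 (chr9:63554049-63665276, GRCm39, minus strand, 9 exons) had a lowest, median and highest value of 13.9, 20.8 and 29.1 FPKM in LD mice and of 14.6, 18.5 and 34.98 FPKM in ADV mice. A single ADV mouse, 28, lay above the LD range, and the edgeR log2 fold change was -0.10 ± 0.11 (SE, adjusted p = 0.568). In mean FPKM over all 30 mice the order was Smad3 (20.5), Id3 (11.3), Id1 (10.7), Bmpr1a (9.58), Tgfbr1 (5.14), Tgfb2 (4.21), Tgfb1 (2.25), Smad7 (1.66), Smad6 (1.50) and Id2 (1.15). Some neighbours in this order changed places from mouse to mouse: Id3 was above Id1 in 19 of 30 mice, Id1 above Bmpr1a in 17, Smad7 above Smad6 in 20 and Smad6 above Id2 in 22. Other steps held in nearly every mouse, with Bmpr1a above Tgfbr1 and Tgfb2 above Tgfb1 in 30 of 30.

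Some of the calls changed with properties of the libraries. The called genes that were higher had transcripts with a GC content of 54.4% (Id1), 55.6% (Id3), 60.3% (Smad6) and 57.9% (Smad7), and Bmpr1a one of 42.1%. With each library's trend on GC content removed, Id1 (log2 fold change 0.68, FDR 0.0393) and Bmpr1a (-0.19, FDR 0.0215) were still called, and Id3 (0.31, FDR 0.0978), Smad6 (0.33, FDR 0.119) and Smad7 (0.29, FDR 0.103) were not. Without ADV mice 24 and 25 (a fit added once the data had been seen) only Bmpr1a was called (-0.24, FDR 0.0350), and the FDRs of Id1, Id3, Smad6 and Smad7 were 0.0599, 0.110, 0.0934 and 0.0792. Over all genes tested, 604 were called with the GC content trend removed and 616 without these 2 mice, beside 1301 with neither change.

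The clock and the immediate early genes differed between the groups as well. Bmal1 averaged 10.2 ± 3.14 FPKM in LD (SD, n = 14) and 16.1 ± 4.07 FPKM in ADV mice (n = 16), and Dbp 26.8 ± 14.5 and 8.60 ± 3.39 FPKM. Fos, an immediate early gene, averaged 2.24 ± 1.17 and 9.03 ± 11.6 FPKM, and 9 of the 17 immediate early genes tested were called, all of them higher. A score of 12 clock genes ran from -1.60 to 0.56 in LD and from -0.64 to 1.12 in ADV mice, and a score of the immediate early genes from -1.03 to 0.36 and from -0.45 to 1.82. With the clock score in the model 0 of the 10 genes were called by edgeR, and 0 at an unadjusted p under 0.05. Over all genes tested, 0 were called with this score and 1316 had an unadjusted p under 0.05 in edgeR. Log2 fold changes were then 0.43 ± 0.26 for Id1, 0.17 ± 0.16 for Id3, 0.03 ± 0.17 for Smad6, 0.06 ± 0.14 for Smad7 and -0.19 ± 0.10 for Bmpr1a (SE). With the immediate early score in the model 0 of the 10 were called and 2 had an unadjusted p under 0.05. Over all genes tested, 64 were called with this score and 2016 had an unadjusted p under 0.05 in edgeR. Log2 fold changes were then 0.20 ± 0.17 for Id1, 0.15 ± 0.12 for Id3, 0.36 ± 0.17 for Smad6, 0.22 ± 0.13 for Smad7 and -0.25 ± 0.09 for Bmpr1a. The immediate early score includes Klf2 and Klf4, which ranked 1 and 3 among the genes most like Id1 (rho 0.87 and 0.86, described further on). Both scores move with the group, so their part and that of the schedule cannot be told apart in these fits.

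**Figure D2:**
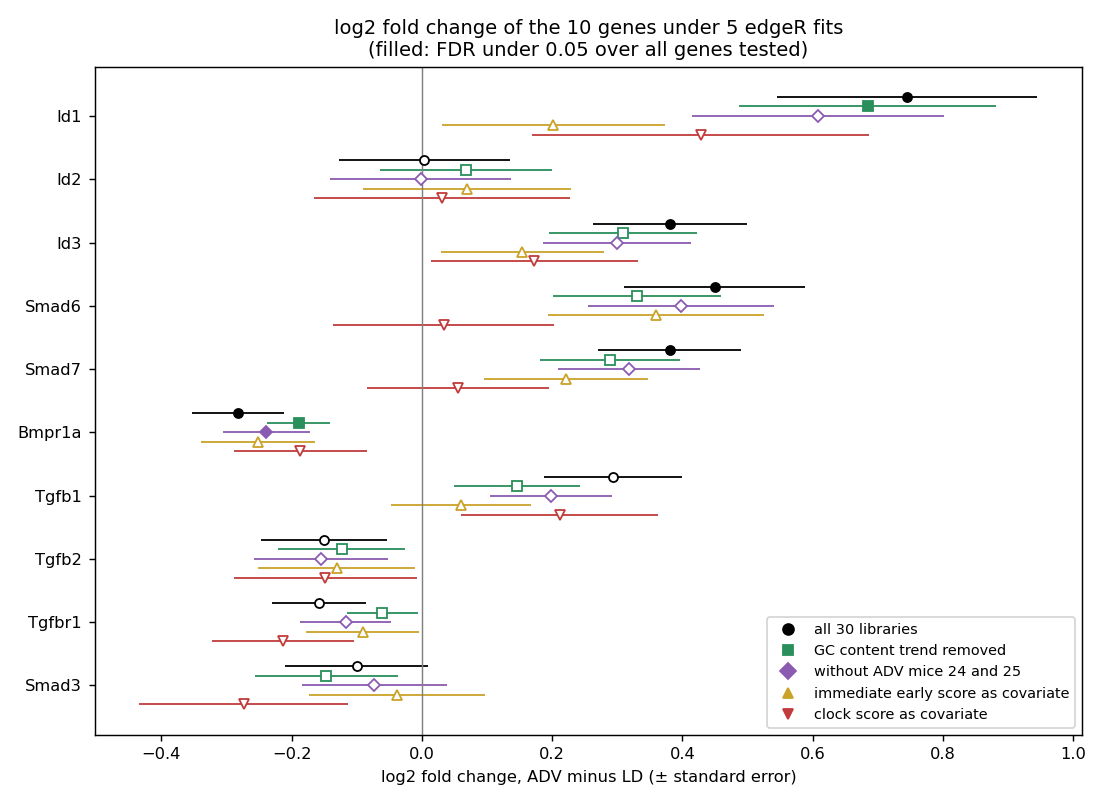
edgeR log2 fold change, ADV minus LD (horizontal axis), with its standard error, for the 10 genes under 5 fits, and filled symbols have an FDR under 0.05 over all genes tested. Bmpr1a is filled in 3 of the fits, Id1 in 2, and Id3, Smad6 and Smad7 only in the fit of all 30 libraries with no correction.

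Endothelial markers were followed because the endothelium is known to express Id1, Id3, Smad6 and Smad7. The summed FPKM of 12 endothelial markers ran from 97.4 to 138 in LD (median 116) and from 113 to 150 in ADV mice (median 122). Of these 12, 2 were called, both higher, and Pecam1, the most abundant, averaged 20.1 ± 2.13 FPKM in LD (SD, n = 14) and 22.7 ± 1.75 FPKM in ADV mice (n = 16). With an endothelial score added to the model, log2 fold changes were 0.73 for Id1 (FDR 0.0378), 0.37 for Id3 (FDR 0.0644), 0.45 for Smad6 (FDR 0.0626), 0.33 for Smad7 (FDR 0.0712) and -0.27 for Bmpr1a (FDR 0.0301). Within the groups, the mean log2 read count of the 12 markers, scaled to library size, was used in place of the score. Its correlation with Id1, Id3, Smad6 and Smad7 ran from -0.18 to 0.22 (Pearson's r, n = 14 and 16, permutation test, adjusted p of at least 0.804).

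Markers of other cells moved as follows, and their part in the results was not tested. The summed FPKM of 8 pericyte and smooth muscle markers, led by Rgs5, ran from 90.3 to 133 in LD and from 104 to 157 in ADV mice, with 1 called higher. Of 8 fibroblast markers, led by Dpt, 1 was called lower (97.8 to 173 and 89.0 to 182), and of the 6 leukocyte markers tested 0 were called by edgeR, DESeq2 or limma, with 2 at an unadjusted p under 0.05 in edgeR (71.3 to 270 and 68.2 to 132, led by Lyz2, with Cd3e and Cd79a at 0 in some libraries). All 5 adipocyte markers, led by Fabp4, had positive log2 fold changes (median 0.78), of which edgeR called 1 and DESeq2 2, with 4 at an unadjusted p under 0.05 in edgeR (136 to 269 and 174 to 606). All 5 Schwann cell markers tested, led by Pmp22, did so too (median 0.45), of which edgeR called 1 and DESeq2 3, with 4 at an unadjusted p under 0.05 in edgeR (23.9 to 45.2 and 25.5 to 79.5). The summed satellite cell markers, led by Cdh15, ran from 5.54 to 7.32 and from 5.58 to 8.42 FPKM, and the 1 of these 4 markers that was tested had an edgeR FDR of 0.971.

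The 7 lists of the wider pathway hold 77 genes, of which 63 were tested. Leaving out the 10 genes, 53 were tested, 6 were higher and 2 lower at an FDR under 0.05, and their median log2 fold change was 0.04. Over all genes tested these shares were 5.61% and 5.2%, or 10.8% in either direction, against which the counts of each list are to be read. Of 11 ligand and latency genes, 1 was higher and 1 lower. Bmp6, a BMP ligand, averaged 4.04 ± 0.83 FPKM in LD (SD, n = 14) and 5.08 ± 0.93 FPKM in ADV mice (n = 16; log2 fold change 0.31, FDR 0.0382). Ltbp1, which anchors latent TGF-beta in the matrix, averaged 3.61 ± 0.35 and 3.17 ± 0.41 FPKM (log2 fold change -0.21, FDR 0.0239). The most abundant gene of this list was Ltbp4, another latent TGF-beta binding protein, with 21.1 and 23.2 FPKM (FDR 0.144).

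Of 9 other receptor genes, 2 were higher, and these are the endothelial co-receptor and type I receptor of BMP signaling. Eng, endoglin, averaged 14.8 ± 2.20 FPKM in LD (SD, n = 14) and 19.5 ± 3.39 FPKM in ADV mice (n = 16), with all 16 ADV mice above the LD median (log2 fold change 0.38, FDR 0.00537). Acvrl1, also called ALK1, averaged 4.25 ± 0.72 and 5.16 ± 0.91 FPKM (log2 fold change 0.26, FDR 0.0448). So among the type I receptors of this list Acvrl1 was higher and Bmpr1a lower in ADV mice.

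None of the other 4 signal-transducing SMADs (of which Smad4 was the most abundant, 13.6 and 12.7 FPKM, FDR 0.121) and none of 7 other inhibitors inside the cell was called by edgeR, DESeq2 or limma, and 1 gene of each list had an unadjusted p under 0.05 in edgeR. The phosphatase gene Ppm1a was the most abundant inhibitor, with 24.1 and 23.8 FPKM (FDR 0.470). Of 9 extracellular antagonists 0 were called by any of these tools, and 3 had an unadjusted p under 0.05 in edgeR. Dcn, decorin, a matrix proteoglycan that binds TGF-beta, was the most abundant, with 251 and 235 FPKM (FDR 0.131). The 3 E protein genes whose products the Id proteins bind, Tcf3, Tcf4 and Tcf12, averaged between 4.18 and 4.71 FPKM in each group, and 0 were called by these tools (2 at an unadjusted p under 0.05 in edgeR).

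Of 10 other target genes, 3 were higher and 1 lower, with a median log2 fold change of 0.19. Atoh8, a bHLH target of BMP signaling in endothelium, averaged 1.49 ± 0.38 FPKM in LD (SD, n = 14) and 2.16 ± 0.49 FPKM in ADV mice (n = 16; log2 fold change 0.52, FDR 0.00966). Ccn2, connective tissue growth factor, averaged 9.18 ± 3.63 and 14.7 ± 6.48 FPKM (log2 fold change 0.66, FDR 0.0395). Ccn1, of the same family and also an immediate early gene, averaged 11.5 ± 3.90 and 25.3 ± 16.8 FPKM (log2 fold change 1.13, FDR 0.00556). In the opposite direction, Tgfbi, a matrix protein named for its induction by TGF-beta, averaged 13.0 ± 1.69 and 11.1 ± 1.74 FPKM (log2 fold change -0.25, FDR 0.0261). The most abundant target, Tsc22d1, did not pass, with 26.96 and 27.7 FPKM (FDR 0.810).

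**Figure D3:**
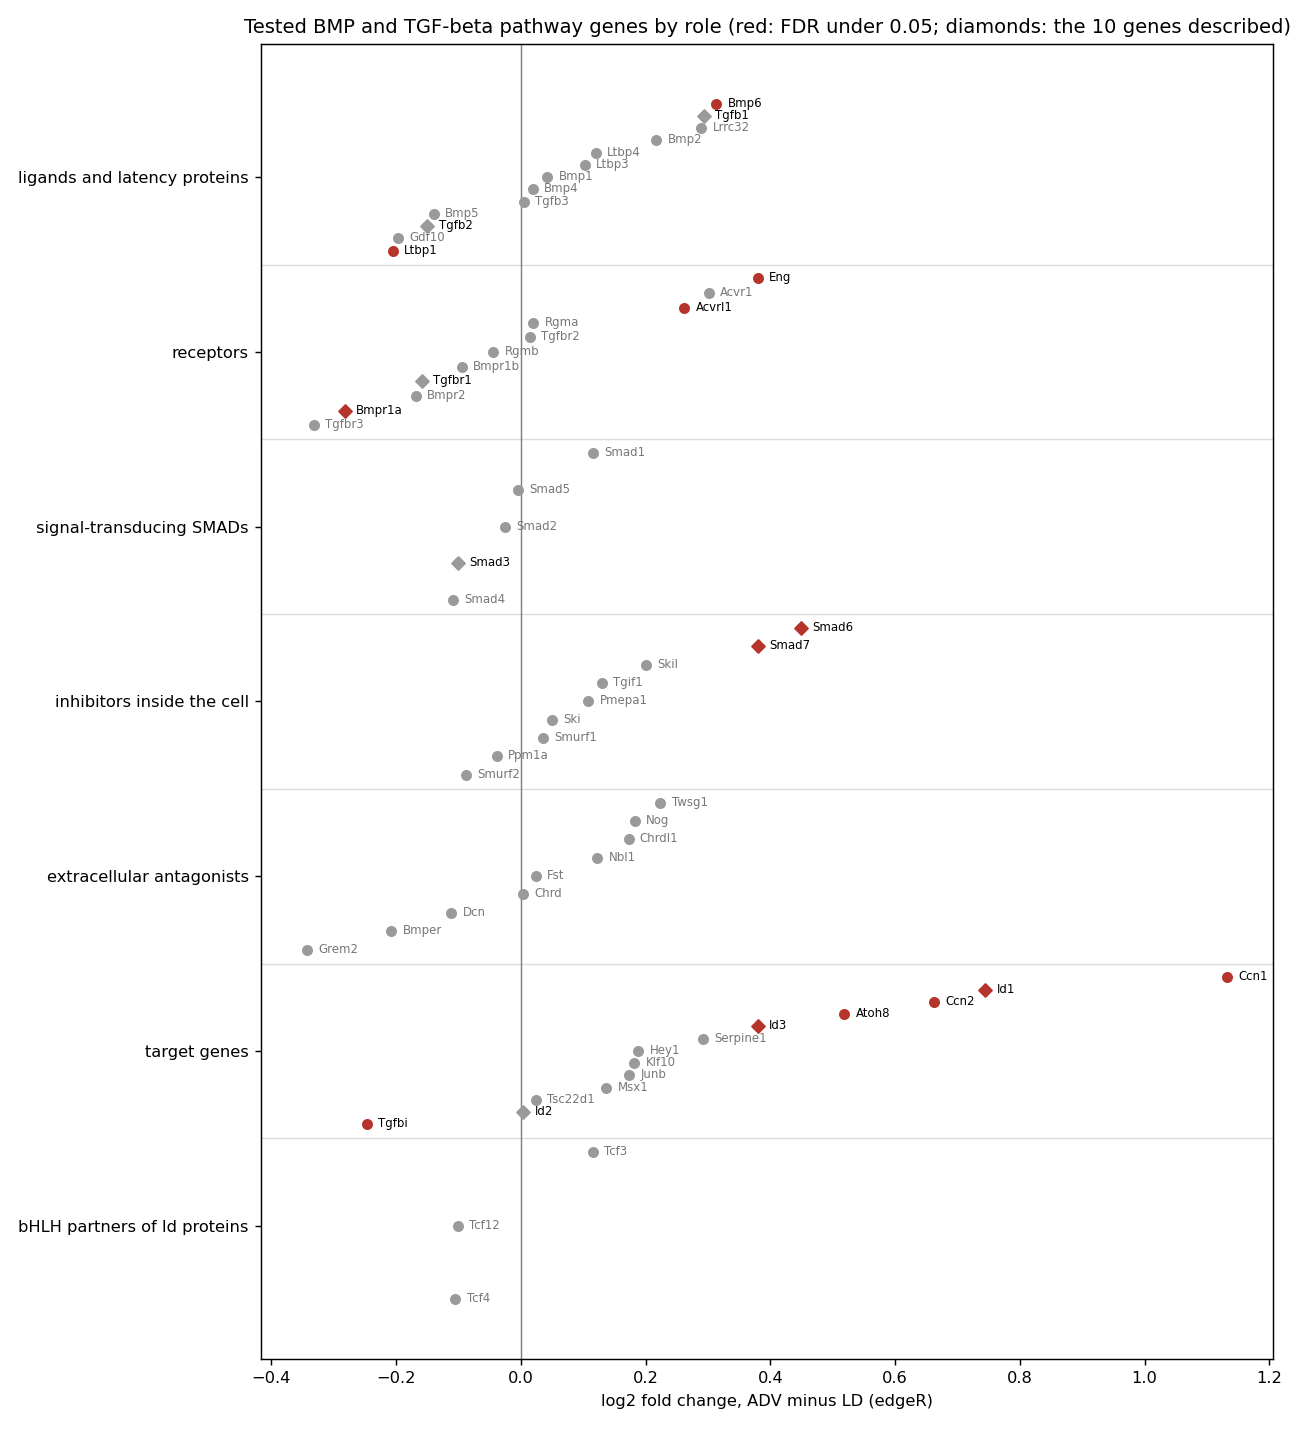
edgeR log2 fold change, ADV minus LD (horizontal axis), of the 63 tested genes of the pathway, 1 point per gene, in rows by role, where red points have an FDR under 0.05 and diamonds are the 10 genes described. Red points to the right of 0 number 10 and those to the left 3, and no signal-transducing SMAD or extracellular antagonist is red.

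To see which of the 10 genes varied together from mouse to mouse, Pearson's r and Spearman's rho of log2 CPM (read counts scaled to the TMM-normalized library size) were computed within LD and within ADV mice, 45 pairs in each and 90 relations in all, with two-sided permutation p-values adjusted over the 90. By both measures 5 relations passed, all of them positive, 2 in LD and 3 in ADV mice. The 2 genes of a pair are read from the same library and share its depth. The median r over the 45 pairs was 0.17 in LD and 0.12 in ADV mice.

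Id1 and Id3 were correlated in both groups. In LD mice r was 0.85 and rho 0.81 (n = 14, permutation test, adjusted p = 0.00594 and 0.0164), and in ADV mice r was 0.85 and rho 0.80 (n = 16, adjusted p = 0.0036 and 0.0126, permutation test). Without the 2 mice farthest from the Id1 median, r was 0.76 in LD and 0.82 in ADV mice, and neither relation passed by both measures any longer (adjusted p of rho = 0.224 and 0.141, permutation test). Id2 shared in none of this: with Id1 its r was -0.02 in LD and -0.06 in ADV mice, and with Id3 0.26 and -0.04.

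Tgfb1 was part of each of the other relations that passed by both measures. In ADV mice it was correlated with Id1 (r = 0.74, rho = 0.77, n = 16, permutation test, adjusted p = 0.0166 and 0.0157) and with Id3 (r = 0.81, rho = 0.79, adjusted p = 0.00382 and 0.0126, permutation test). In LD mice it was correlated with Smad6 (r = 0.88, rho = 0.90, n = 14, permutation test, adjusted p = 0.00382 and 0.0036). Without the 2 farthest mice these r were 0.87, 0.71 and 0.85, and Id1 in ADV and Smad6 in LD mice still passed by both measures, while Id3 in ADV mice did not (adjusted p = 0.0774 for r and 0.18 for rho, permutation test). In the other group the same pairs had r = 0.60 (Id1), 0.76 (Id3) and 0.43 (Smad6), of which Id3 in LD mice passed by r alone (adjusted p = 0.0365, with 0.0623 for rho, permutation test), and the difference between the groups was not tested. The pair Smad6 and Smad7 had r = 0.60 in LD and 0.52 in ADV mice, and neither passed (adjusted p = 0.133 and 0.175, permutation test). The receptors Bmpr1a and Tgfbr1 had r = 0.83 in ADV mice (adjusted p = 0.00382) with rho = 0.66 (adjusted p = 0.0623, permutation test), and r = 0.23 with rho = -0.25 in LD mice. Without ADV mouse 34, r was 0.76 and rho 0.59 in the other 15 ADV mice.

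**Figure D4:**
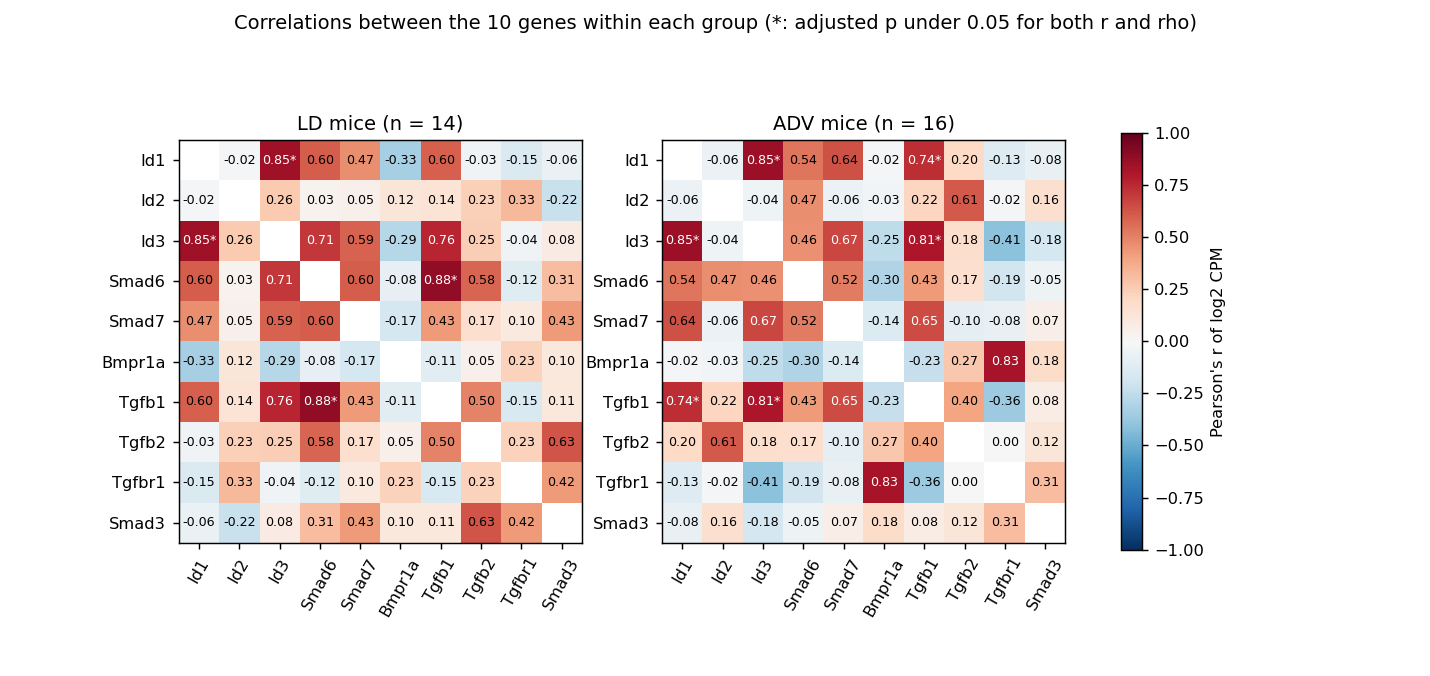
Pearson's r of log2 CPM for each pair of the 10 genes, within LD mice (left, n = 14) and within ADV mice (right, n = 16), on a color scale from -1 to 1, and an asterisk marks pairs with an adjusted p under 0.05 for both r and rho. The pair Id1 and Id3 is marked in both groups (0.85 in each), and the row of Id2 holds no mark.

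A second family of 80 relations set each of the 10 genes against Bmal1, Dbp, Fos and the endothelial markers, and 0 passed by both measures. By Pearson's r alone 4 did, all in LD mice and all with Dbp. The r with Dbp was -0.76 for Id1, -0.76 for Id3, -0.72 for Smad6 and -0.79 for Smad7 (n = 14, permutation test, adjusted p = 0.024, 0.024, 0.0334 and 0.024). The matching rho were -0.75, -0.77, -0.60 and -0.65, with adjusted p of 0.0596, 0.0596, 0.247 and 0.211 (permutation test). Without the 2 mice farthest from the Dbp median, r was -0.68, -0.65, -0.75 and -0.50. In ADV mice the r with Dbp was 0.10 for Id1, 0.14 for Id3, -0.14 for Smad6 and -0.44 for Smad7, and none passed. The r of Bmal1 with Id1 was 0.57 in LD and -0.50 in ADV mice, again without passing, and the difference between the groups was not tested. In ADV mice the rho of Fos with Tgfb1 was 0.73 and that of Bmal1 with Tgfb2 -0.72. Neither passed (adjusted p = 0.0596 for each, permutation test). The r of Fos with Id1 was 0.53 in LD and 0.56 in ADV mice, also without passing (adjusted p = 0.245 and 0.171, permutation test). The level of Dbp is known to follow the time of day. The LD mouse with the lowest Dbp, mouse 34, was the highest of its group in Id1, Id3, Smad6 and Smad7.

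**Figure D5:**
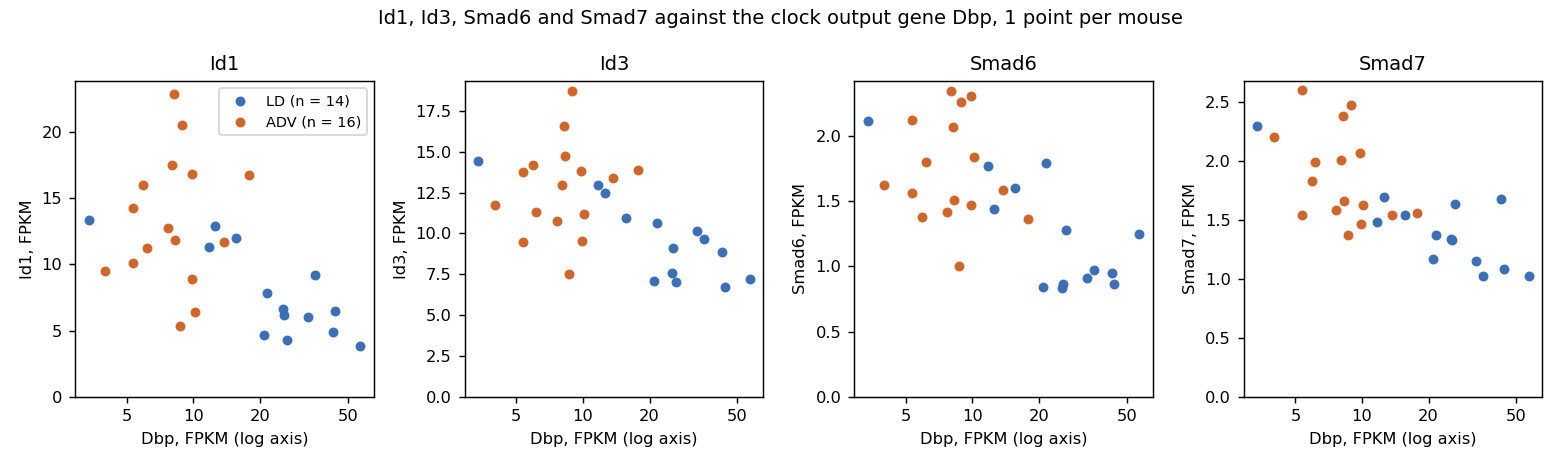
FPKM of Id1, Id3, Smad6 and Smad7 (vertical axes, from 0) against FPKM of Dbp (horizontal axis, log scale), 1 point per mouse, LD in blue (n = 14) and ADV in orange (n = 16). The ADV mice lie between 3.98 and 17.8 FPKM of Dbp and the LD mice between 3.36 and 56.9, and the LD points with the lowest Dbp lie at the height of the ADV points.

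The genes most like a member over all 30 mice were ranked by Spearman's rho of log2 CPM after the group means were removed, over 12029 other genes, as a description. For Id1 they were Klf2 (0.87), Tcim (0.86), Klf4 (0.86), Sfpq (0.86) and Tmem204 (0.84) outside the 10 genes. Klf2 and Klf4 encode Kruppel-like factors that are on the immediate early list. Id3 stood at rank 5 of 12029 for Id1 (rho 0.85), and Id1 at rank 1 for Id3. For Id2 the first 5 were Cd68, a macrophage marker (0.63), Igtp, Gm42674, S100a4 and Lysmd2 (0.61). For Smad6 they were Zfp516 (0.75), Ptma, Atf6b, Tmem184b and Gpr153 (0.74), and for Smad7 Slc47a1 (0.76), Cnnm4, Cbfa2t3, Tmem88 and Nedd9 (0.73). Smad7 stood at rank 456 for Smad6 (rho 0.51), so these members did not head each other's lists as Id1 and Id3 nearly did.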

How the data were processed

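Poly(A)-enriched, stranded RNA of the gastrocnemius of 14 LD and 16 ADV mice, grouped by their labels, was sequenced in paired-end reads of 101 bases. The authors used Trimmomatic to trim adaptors and STAR to map to GRCm39, dropped alignments with a mapping quality under 10 and counted reads on the exons of 57186 UCSC known canonical transcripts with Homer. The submitters' processing notes list STAR 2.7.10a, HOMER 4.11 and bcl2fastq. The deposited raw values are expected counts in the sense that Homer gives each mate 0.5 read, so that 14.8% were not whole, and all were rounded to the nearest whole number, ties to the even one. The authors also deposited FPKM values, used here as levels. Whether the counting used strand is not given in the sources used here.

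Genes with a mean over 20 reads and over 0.5 FPKM were tested, with the longest such row kept for each of 232 symbols on several rows. Counts were compared by edgeR 4.0.16 (quasi-likelihood F test, TMM) in R 4.3.3 with no covariate, with Benjamini-Hochberg adjustment over 12030 genes. Correlations and spread were tested by 100000 permutations of the mice (scipy 1.17.1). The SE of a fold change was derived from the F statistic. P-values measure the spread between mice, each of them 1 library. No 2 libraries of a group agreed within sampling noise (chi-square per degree of freedom of at least 10.6). The edgeR test was checked on simulated counts.

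The 10 genes and all lists were chosen with earlier results of these data known. Named genes were the 10, every called gene and the most abundant tested gene of each pathway list, the 5 genes most like Id1, Id2, Smad6 and Smad7, the most abundant marker of each cell type, and Bmal1, Dbp and Fos. Klf2 and Klf4 were set against the immediate early list, and Smad4 was named as the most abundant SMAD outside the 10 genes, after their values were seen. The clock score is the mean z-score of 12 clock genes, evening genes counted negatively, and the other scores are mean z-scores of their lists. Alternatives were DESeq2 1.42.0, limma 3.58.1 on log2(FPKM + 0.1) and log2(FPKM + 1), other scaling, other filters, counts summed over rows, the fold change limit, the label number as a block, the scores as covariates, a GC content trend removed (spline with 4 degrees of freedom, genes over 50 reads, GENCODE vM39) and leaving out each mouse. The fit without ADV mice 24 and 25 and the leaving out of each mouse for the spread of Tgfbr1 were added after seeing the data. Protein sequences were not used here.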

Additional observations from a re-analysis of the deposited data

How the results depend on the processing

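All 10 genes were measured well enough to be tested. Id2 with 55.3 and Smad6 with 110 reads on average carry the largest counting errors relative to their level. What limits the other genes was not tested. No called fold change reversed under any alternative. The number of the 10 genes called, 5 as reported, was 2 with no filter on low genes, with the GC content trend removed and with the endothelial score, 1 without ADV mice 24 and 25 and 0 with the clock or the immediate early score. For the pathway lists, 13 called genes became 7 with no filter, 8 with the 1.3-fold limit, 8 with the GC content trend removed, 6 without ADV mice 24 and 25, 7 with the endothelial score and 0 with either other score (8 and 10 genes had an unadjusted p under 0.05 with the clock and the immediate early score). Over all genes, 1301 became 701, 252, 604 and 616 under the first 4 of these, 977 with the endothelial score, 0 with the clock score (1316 at an unadjusted p under 0.05) and 64 with the immediate early score (2016). The clock and immediate early scores themselves differ between the groups, the filter alternative tests more genes, and the fit without 2 mice has fewer samples. Why the counts changed was not tested for any of these settings. DESeq2, limma, the other scalings, the stricter filter and the summed rows gave counts within 1.5 times of those reported. Of the 14 label numbers found in both groups, 6 had same-numbered mice whose deviations correlated above 0.1 (range -0.26 to 0.43), and 3 mice correlated best with their own number, so the numbers are not taken to pair the mice. The fit with the replicate block used only these 14 numbers, so it also lacked ADV mice 24 and 25. It called 1 of the 10 genes (Id1, FDR 0.0238), 6 pathway genes and 494 of all genes. Without these 2 mice and with no block, the counts were 1, 6 and 616. Leaving out 1 mouse at a time gave 3 to 6 of the 10 genes, a difference in the spread of Tgfbr1 from 0.0804 to 0.129 (log2), 8 to 15 pathway genes and 835 to 1542 of all genes. The number of correlations passing by both measures, 5, was 2 without the 2 farthest mice. As partial rank correlations given the clock score 8 passed, but these were judged by ranks alone and not by both measures.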
